A study of Mus musculus with 20 samples.

Results

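The genes described here are the 10 clock repressors Per1, Per2, Per3, Cry1, Cry2, Ciart, Nr1d1, Nr1d2, Bhlhe40 and Bhlhe41, found by symbol among the 15780 genes listed in the kidney count tables. All 10 were present, and all 10 were among the 13990 genes that passed the filter on low counts. Counts came from bulk RNA sequencing of whole kidney from 20 female NCr nude (sp/sp) mice, a strain without a thymus that was 7 weeks old at purchase, with 5 mice in each of 4 groups. The EIC group received 6 intravenous injections of engineered immune complexes, given every other day, each made of 0.2 mg human galactose-deficient IgA1 (Gd-IgA1, a polymeric myeloma protein) and 0.1 mg recombinant human IgG autoantibody, and vehicle by daily oral gavage for 11 days. The Control group received phosphate-buffered saline without complexes and the same vehicle gavage. The EIC + S60 and EIC + S120 groups received the complexes and daily sparsentan, a dual antagonist of the angiotensin II type 1 receptor and the endothelin A receptor, at 60 or 120 mg/kg. Kidneys of all groups were taken on day 12. The model thus rests on human proteins in mice without mature T cells, and there was no group given sparsentan without complexes. The paper states that cage and treatment variation were not controlled for. It says that mice were divided into groups at random, and also that they were not randomized. Neither the study's text nor its labels state the time of day or the order in which kidneys were taken. A shift in sampling time between groups thus cannot be told apart from a change in the level of a rhythmic gene.

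The molecular clock is a feedback loop in which CLOCK (or NPAS2) and BMAL1, the product of Arntl, bind E-box sequences and switch on genes whose products later switch them off. PER and CRY proteins, with CIART, act on the CLOCK-BMAL1 complex itself, the REV-ERB receptors encoded by Nr1d1 and Nr1d2 silence Arntl and Cry1 through ROR elements, and the DEC proteins encoded by Bhlhe40 and Bhlhe41 compete at E-boxes. Messages of most of these genes rise and fall daily in kidney, where the clock is known to act on tubular salt handling, and they peak at different times of day, with the REV-ERB messages before those of Per2 and Cry1.

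Library totals were most uneven among Control mice. Control libraries held 12662345 to 38651781 counts, the 2 deepest being mice 651 and 652, against 15220943 to 27948916 over the other 3 groups. The library of EIC mouse 65 listed no gene at 0, while the other 19 libraries listed 234 to 654 genes at 0. Every listed gene thus has a count in that library, no source states how the list was made, and a gene that is not listed may have had counts in other mice. Summed kidney markers were high in every group, from 10675 to 14271 CPM (counts per 1000000 counts of the scaled library) over all mice. Adipocyte markers summed to 154 CPM in Control mouse 653 and to at most 4.73 CPM in every other mouse. Leaving out that mouse changed the call of 1 repressor in comparisons with Control, Per3 in EIC + S60 vs. Control, given below with the other mice that did so. P-values here measure only the spread between these mice, and in bulk tissue fewer cells of a type and less RNA per cell cannot be told apart.

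The proximal promoters are shown because E-boxes and D-boxes, the sequences that clock factors bind, were searched for in them. The 250 bases before the transcription start in RefSeq (GRCm38.p6) were found for 8 of the 10 repressors, in 9 windows. Per2 and Bhlhe40 had no entry. Searched on both strands were the E-box CACGTG, the variant E-box CACGTT, the D-boxes TTATGTAA and TTACGTAA bound by DBP, TEF, HLF and NFIL3, the cores TAGGTCA and TGGGTCA bound by REV-ERB and ROR proteins, the cAMP response element TGACGTCA and the palindromic glucocorticoid response element. Of 32851 mouse promoter windows of this length, 6.02% held CACGTG, 3.85% CACGTT and 0.931% a D-box. Capitals mark the matches below, and bases that GENCODE places in an exon are left off. In Cry1 (chr10:85185065-85185304, minus strand), a CACGTG began 60 bases and an AACGTG, the reverse complement of CACGTT, 79 bases before the start. Ciart (chr3:95882252-95882478, minus strand) held 3 CACGTG matches, 116, 58 and 44 bases before the start. In Nr1d1 (chr11:98775378-98775627, minus strand) an AACGTG began 28 bases before the start, and Per3 (chr4:151044666-151044915, minus strand) held 2 D-boxes, 205 and 158 bases before it.
Cry1: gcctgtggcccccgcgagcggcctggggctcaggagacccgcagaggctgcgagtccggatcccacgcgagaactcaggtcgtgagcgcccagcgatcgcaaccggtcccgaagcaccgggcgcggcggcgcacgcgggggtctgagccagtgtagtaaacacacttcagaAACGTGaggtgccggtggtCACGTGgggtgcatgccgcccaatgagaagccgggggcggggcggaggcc
Ciart: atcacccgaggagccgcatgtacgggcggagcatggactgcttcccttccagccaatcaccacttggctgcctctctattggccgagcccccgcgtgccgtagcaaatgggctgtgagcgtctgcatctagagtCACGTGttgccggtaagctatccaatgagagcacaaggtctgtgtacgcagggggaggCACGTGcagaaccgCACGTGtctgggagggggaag
Nr1d1: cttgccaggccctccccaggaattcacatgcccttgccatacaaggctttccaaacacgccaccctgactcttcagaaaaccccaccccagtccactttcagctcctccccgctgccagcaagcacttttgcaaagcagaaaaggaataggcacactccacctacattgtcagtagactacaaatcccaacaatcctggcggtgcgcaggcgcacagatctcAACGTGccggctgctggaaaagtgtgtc
Per3: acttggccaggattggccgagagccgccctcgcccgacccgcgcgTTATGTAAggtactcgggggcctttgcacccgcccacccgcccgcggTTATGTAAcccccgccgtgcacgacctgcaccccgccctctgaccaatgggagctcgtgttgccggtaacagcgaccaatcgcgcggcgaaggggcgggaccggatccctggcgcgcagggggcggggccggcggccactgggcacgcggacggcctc
Among the remaining windows, Per1 (1 of 2 starts) and Bhlhe41 each held a CACGTG and Cry2 held an AACGTG. E-boxes thus occurred in 4 of the 8 repressors with a window, the variant E-box in 3 and the D-box in 1. Counted by gene in the same way, the shares over 27025 genes were 6.86%, 4.5% and 1.1%. The REV-ERB and ROR core (5.38% of all windows), the cAMP response element (1.55%) and the glucocorticoid response element (0.00913%) had no match in any of the 9 windows. These are matches of letters in a short window, not binding sites.

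Injection of EIC was accompanied by higher messages for the 6 repressors Cry1, Per2, Ciart, Per3, Cry2 and Nr1d2, of which Cry1 moved most. In EIC vs. Control, 6 of 10 repressors were differentially expressed (DE, an adjusted p under 0.05 in edgeR's quasi-likelihood test) and higher, and none was lower. Over all tested genes 2.97% were DE, with 1.61% higher and 1.37% lower. In 5 repressors (Per2, Per3, Cry1, Cry2 and Nr1d2) all EIC mice lay above all Control mice, where 4.01% of all genes separated in either direction and 1.98% with EIC higher. The median log2 fold change (LFC) of the repressors was 0.6 against −0.01 over all genes. The repressors were chosen with earlier results of these data known, so these shares and medians are no test of the set. Without Control mice 651 and 652, the 2 deepest libraries, 3 of the 6 stayed DE (Per2, Cry1 and Cry2), while Per3, Ciart and Nr1d2 had adjusted p of 0.129, 0.0568 and 0.0625. The LFCs of Per3, Ciart and Nr1d2 were then 0.59, 1.15 and 0.29, against 0.63, 1.1 and 0.26 with all libraries. That fit held fewer Control mice, so library depth and the number of mice cannot be told apart in it.

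**Figure D1:**
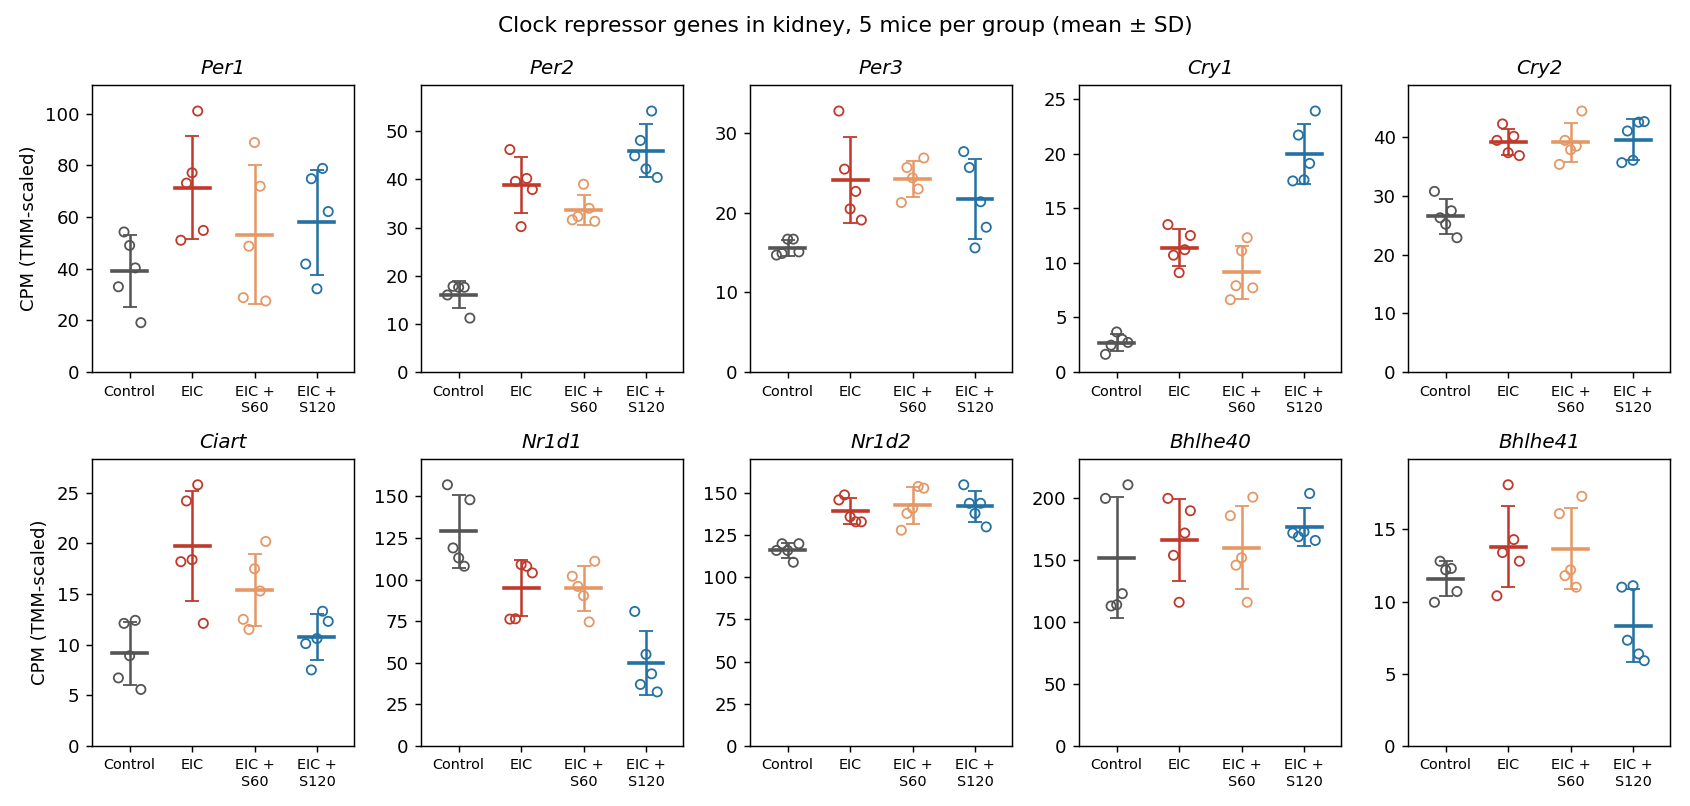
CPM of the 10 clock repressors (y axes, linear from 0, scaled by TMM) by group (x axes, from Control to EIC + S120). Circles are mice, 5 per group, and bars are the mean ± SD. Cry1 and Per2 lie above Control in every mouse given EIC, and 4 of 5 EIC + S120 mice lie below every other mouse for Nr1d1.

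Of the PER genes, whose products form the repressive complex with CRY proteins, Per2 showed the clearest separation. Per2 in Control mice 651 to 655 was 16, 17.8, 17.6, 17.6 and 11.2 CPM, and in EIC mice 65 to 69 it was 46.2, 39.6, 30.2, 40.2 and 37.9 CPM. EIC + S60 mice 71 to 75 gave 31.6, 32.3, 39, 34.0 and 31.3 CPM, and EIC + S120 mice 77 to 81 gave 44.9, 48.1, 42.2, 54.2 and 40.4 CPM. The lowest EIC mouse, 67, was thus well above the highest Control mouse, and the EIC + S120 mice lay above all EIC + S60 mice but overlapped the EIC mice. Per2 rose 2.41-fold in EIC vs. Control (LFC 1.27, SE 0.12, adjusted p = 2.38e-06). Its exact two-sided permutation p was 0.00794, the smallest that 5 against 5 mice can give.

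Per3, the PER gene that the core oscillator least depends on, was tightly grouped in Control mice at 14.7, 14.9, 16.7, 16.7 and 15.1 CPM. EIC mice had 32.8, 25.5, 20.5, 22.7 and 19.1 CPM, EIC + S60 mice 21.3, 25.7, 24.4, 23.0 and 26.9 CPM, and EIC + S120 mice 27.7, 25.7, 15.6, 21.4 and 18.2 CPM. Only EIC + S120 mouse 79 fell within the Control range. The rise in EIC vs. Control was 1.55-fold (LFC 0.63, SE 0.14, adjusted p = 0.0201), with an adjusted p of 0.0505 when Control mouse 651 was left out.

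Per1, the PER gene that responds most quickly to cAMP and glucocorticoid signals, was the most variable. It ranged from 19.1 to 54.2 CPM in Control mice (median 40.3), from 51.0 to 101 in EIC mice (median 73.1), from 27.5 to 88.8 in EIC + S60 mice (median 48.7), and from 32.2 to 78.8 in EIC + S120 mice (median 62.1). In EIC, 4 of 5 mice lay above every Control mouse, and EIC mouse 65 lay between the highest and the next Control mouse. Per1 was not DE in EIC vs. Control (LFC 0.86, SE 0.33, 95% interval 0.22 to 1.61, adjusted p = 0.226), nor in any other of the 6 comparisons.

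Cry1 encodes the cryptochrome that represses CLOCK-BMAL1 most strongly and late in the cycle. Its values in Control mice were 1.62, 2.46, 3.67, 2.99 and 2.71 CPM. EIC mice had 13.5, 10.7, 9.10, 11.2 and 12.5 CPM, EIC + S60 mice 6.62, 7.91, 11.1, 12.3 and 7.71 CPM, and EIC + S120 mice 17.5, 21.7, 17.6, 19.1 and 23.9 CPM. Every mouse given EIC lay above the Control range, and all 5 EIC + S120 mice lay above every mouse of the other 3 groups. In EIC vs. Control, Cry1 rose 4.36-fold (LFC 2.12, SE 0.19, adjusted p = 2.38e-06).

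Cry2, its paralogue, differed between Control and the other groups, while the 3 groups given EIC overlapped. Control mice had 30.8, 26.3, 25.2, 27.5 and 22.9 CPM. The EIC mice ranged from 36.9 to 42.3 CPM, the EIC + S60 mice from 35.4 to 44.5 and the EIC + S120 mice from 35.7 to 42.7. Every mouse given EIC was above every Control mouse, and the rise was 1.47-fold (LFC 0.56, SE 0.08, adjusted p = 0.000348). The ratio of Cry1 to Cry2 counts was 0.0525 to 0.146 in Control, 0.243 to 0.341 in EIC, 0.173 to 0.32 in EIC + S60 and 0.448 to 0.559 in EIC + S120, so that the highest ratios of the 20 mice were the 5 of EIC + S120. This and the other count ratios were chosen after their values were seen.

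Ciart, which encodes the CLOCK-BMAL1 repressor also called CHRONO, had 6.71, 12.1, 8.90, 12.4 and 5.57 CPM in Control mice and 18.2, 24.2, 18.4, 25.8 and 12.1 CPM in EIC mice. EIC mouse 69 lay inside the Control range and the other 4 above it. Ciart rose 2.15-fold (LFC 1.1, SE 0.23, adjusted p = 0.016). In EIC + S60 mice the values were 12.5, 11.5, 17.5, 15.3 and 20.2 CPM and in EIC + S120 mice 10.1, 7.50, 10.6, 13.3 and 12.3 CPM, and 4 of the 5 latter mice lay within the Control range. The EIC vs. Control call was lost when the fit held only the 10 compared libraries (adjusted p = 0.0721).

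Of the REV-ERB genes, Nr1d2 rose slightly but evenly in EIC vs. Control, 1.2-fold (LFC 0.26, SE 0.06, adjusted p = 0.0208), from 109 to 120 CPM in Control mice to 133 to 149 in EIC mice. That call was lost without Control mouse 654 (adjusted p = 0.062) and with only the 10 compared libraries (0.0504). Nr1d1, the more rhythmic of the pair, was 157, 119, 113, 108 and 148 CPM in Control mice, 76.2, 76.4, 109, 108 and 104 in EIC mice, 102, 95.9, 90.3, 74.5 and 111 in EIC + S60 mice, and 80.8, 36.9, 55, 43.3 and 32.4 in EIC + S120 mice. Control mice 651 and 655 stood above the other 18, and EIC + S120 mouse 77 stood above the rest of its group. Nr1d1 was not DE in EIC vs. Control (LFC −0.44, SE 0.19, 95% interval −0.84 to −0.05, adjusted p = 0.27).

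The DEC genes showed no DE call in any of the 6 comparisons. Bhlhe40 (DEC1) ranged from 113 to 211 CPM in Control mice, 116 to 200 in EIC, 116 to 201 in EIC + S60 and 166 to 204 in EIC + S120, with an LFC of 0.13 in EIC vs. Control (95% interval −0.22 to 0.54). Control mice 651 and 655, which were highest for Nr1d1, were also highest of their group for Bhlhe40, at 200 and 211 CPM against 113 to 123. Bhlhe41 (DEC2) was 9.95 to 12.8 CPM in Control mice and 10.4 to 18.1 in EIC mice (LFC 0.25, 95% interval −0.14 to 0.61). In EIC + S120 mice Bhlhe41 was 11, 7.32, 11.1, 6.37 and 5.90 CPM, so 3 of 5 mice lay below every mouse of the other groups.

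With sparsentan at 60 mg/kg, no repressor passed the test against EIC. In EIC + S60 vs. EIC, 0 of 10 repressors were DE by edgeR, and 0 had an unadjusted p under 0.05. Over all genes the share DE was 0%, and 6.05% had an unadjusted p under 0.05. DESeq2 and limma-voom also called 0 repressors, with 0.0357% and 0% of all genes called. No repressor separated the groups, against 0.886% of all genes. The widest of the 95% intervals was that of Per1, −1.23 to 0.16 around an LFC of −0.43, and the narrowest that of Nr1d2, −0.09 to 0.15 around 0.03. For Cry1 the LFC was −0.32 (95% interval −0.73 to 0.05), with 3 of 5 EIC + S60 mice below every EIC mouse, and for Per2 it was −0.21 (−0.45 to 0.06).

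Against Control, the EIC + S60 group had 5 DE repressors, all higher, where 1.29% of all genes were DE with 0.808% higher and 0.479% lower. Cry1 rose 3.49-fold (LFC 1.80, SE 0.19, adjusted p = 4.02e-05), Per2 2.08-fold (LFC 1.06, SE 0.12, adjusted p = 5.26e-05) and Cry2 1.47-fold (LFC 0.56, SE 0.08, adjusted p = 0.00045). Per3 (LFC 0.64, SE 0.14, adjusted p = 0.0259) and Nr1d2 (LFC 0.29, SE 0.06, adjusted p = 0.0118) rose less. All 5 separated the groups completely, as did 3.82% of all genes in either direction and 2.08% with EIC + S60 higher. The Per3 call held in 12 of the 20 fits that left out 1 mouse. It was lost without any of the 5 Control mice or EIC + S60 mouse 72, 73 or 75, with an adjusted p of at most 0.074, and also without both of the deepest Control libraries (0.136). Ciart was not DE at LFC 0.75 (SE 0.23, adjusted p = 0.139), and DESeq2 called it (adjusted p = 0.0422). These values share the Control mice with EIC vs. Control.

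**Figure D2:**
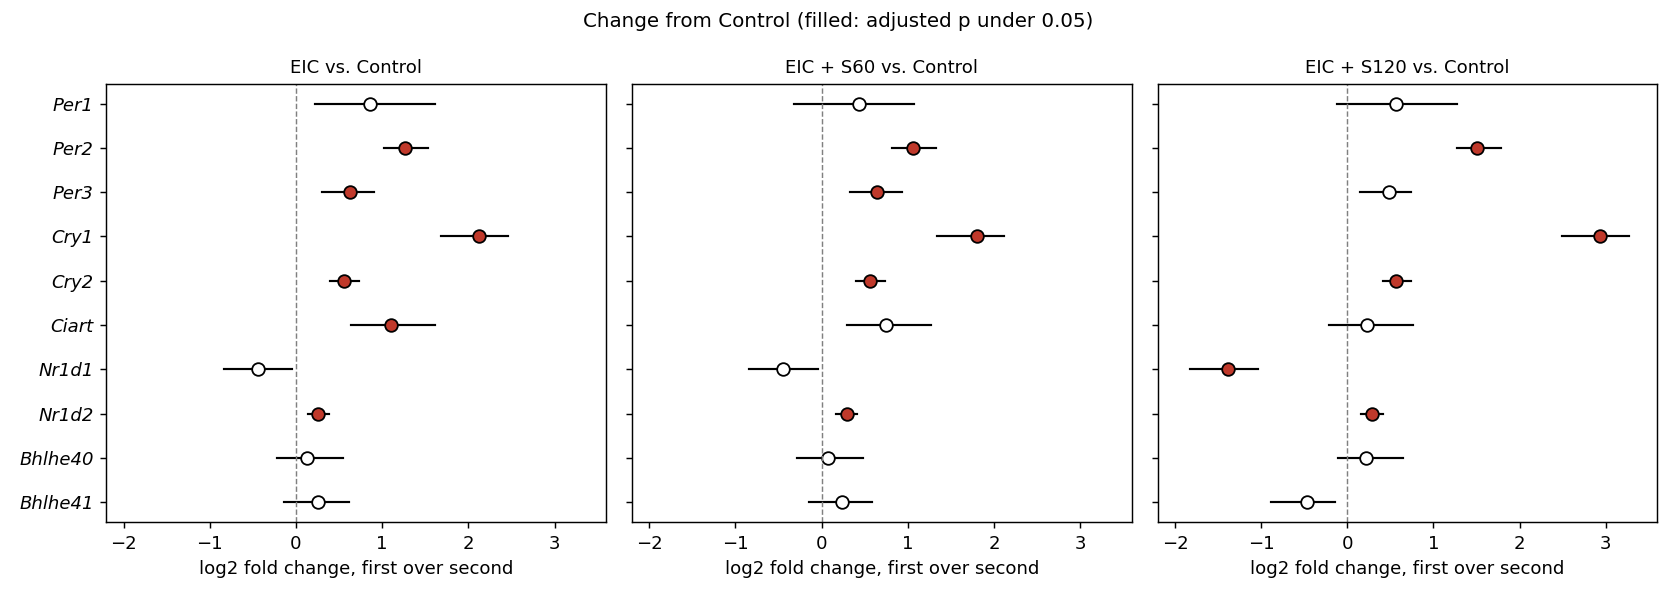
LFC (x axes, log2 units) of each repressor (y axis) in the 3 EIC groups relative to the same 5 Control mice. Points are edgeR estimates, lines are 95% intervals from limma, and filled points have an adjusted p under 0.05. Cry1 is farthest to the right in each panel, at 2.12, 1.80 and 2.93, and Nr1d1 is filled to the left of 0 in EIC + S120 only.

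In EIC + S120 vs. Control, 4 repressors were DE and higher and 1 was lower, where 5.55% of all genes were DE, 2.89% higher and 2.67% lower. Cry1 rose 7.64-fold (LFC 2.93, SE 0.19, adjusted p = 8.76e-09) and Per2 2.84-fold (LFC 1.51, SE 0.12, adjusted p = 1.04e-07). Cry2 rose by LFC 0.57 (SE 0.08, adjusted p = 0.000116) and Nr1d2 by 0.29 (SE 0.06, adjusted p = 0.00565). Nr1d1 fell to 0.385 of its Control level (LFC −1.38, SE 0.19, adjusted p = 0.000521), with all 5 EIC + S120 mice below all Control mice. These same 5 genes separated the groups, against 5.82% of all genes (2.79% with EIC + S120 higher and 3.02% lower). Each of the 5 calls held in all 20 fits that left out 1 mouse. Per3 missed the threshold (LFC 0.48, SE 0.14, adjusted p = 0.0551), with 4 of 5 mice above every Control mouse, and was called without EIC mouse 65, EIC mouse 69 or EIC + S120 mouse 79, with an adjusted p down to 0.0192, and by DESeq2 (0.0226). The Ciart mean was 10.8 ± 2.24 CPM (SD, n = 5) against 9.14 ± 3.09 CPM in Control (LFC 0.23, 95% interval −0.21 to 0.76).

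Between the sparsentan doses, Cry1 was higher at 120 mg/kg. In EIC + S120 vs. EIC + S60, 1 of 10 repressors was DE by edgeR, against 0.0643% of all genes, with 0.0357% higher. Cry1 rose 2.19-fold (LFC 1.13, SE 0.19, adjusted p = 0.00789), and the adjusted p reached 0.0587 when EIC + S120 mouse 78 or 81 was left out. Cry1 and Per2 separated the groups, with EIC + S120 higher, where 1.66% of all genes separated in either direction and 0.722% in this one. Per2 was not DE (LFC 0.45, SE 0.12, 95% interval 0.19 to 0.70, adjusted p = 0.155). Nr1d1 had an LFC of −0.93 (SE 0.19, adjusted p = 0.116), which became DE without EIC + S120 mouse 77 (adjusted p = 0.00561), and so took the count of DE repressors from 1 to 2. Bhlhe41 had an LFC of −0.72 (SE 0.18, adjusted p = 0.155). DESeq2, which called 81 genes in this comparison (0.579% of those tested) where edgeR called 9, called 4 repressors, Cry1, Per2 (adjusted p = 0.0368), Nr1d1 (0.00159) and Bhlhe41 (0.0284).

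In EIC + S120 vs. EIC, 0 of 10 repressors were DE by edgeR, against 0.0572% of all genes, while 5 of 10 had an unadjusted p under 0.05, against 8.45% of all genes. Those 5 were Cry1, Nr1d1, Bhlhe41, Ciart and Per2. The Cry1 LFC was 0.81 (SE 0.19, 95% interval 0.42 to 1.2, adjusted p = 0.134), and Cry1 was the 1 repressor that separated the groups, with EIC + S120 higher, as 1.2% of all genes did in either direction and 0.65% in this one. Nr1d1 had an LFC of −0.93 (95% interval −1.39 to −0.59, adjusted p = 0.175), Ciart of −0.87 (−1.33 to −0.37, 0.259), Bhlhe41 of −0.73 (−1.12 to −0.38, 0.229) and Per2 of 0.24 (−0.01 to 0.50, 0.583). In 4 of 5 EIC + S120 mice Nr1d1 lay below every EIC mouse, mouse 77 being the exception, and without mouse 77 Nr1d1 was DE (LFC −1.18, adjusted p = 0.00554). Cry1 was called without Control mouse 651 (adjusted p = 0.0457). DESeq2, which called 65 genes (0.465% of those tested) where edgeR called 8, called 4 repressors, Nr1d1 (0.00169), Cry1 (0.00496), Bhlhe41 (0.0337) and Ciart (0.0387). By limma-voom, 0.0286% of genes and 0 repressors were called, with adjusted p of 0.0506 for Cry1 and 0.055 for Nr1d1. For Cry2 and Nr1d2 the intervals were narrow around 0, −0.15 to 0.18 and −0.09 to 0.15.

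**Figure D3:**
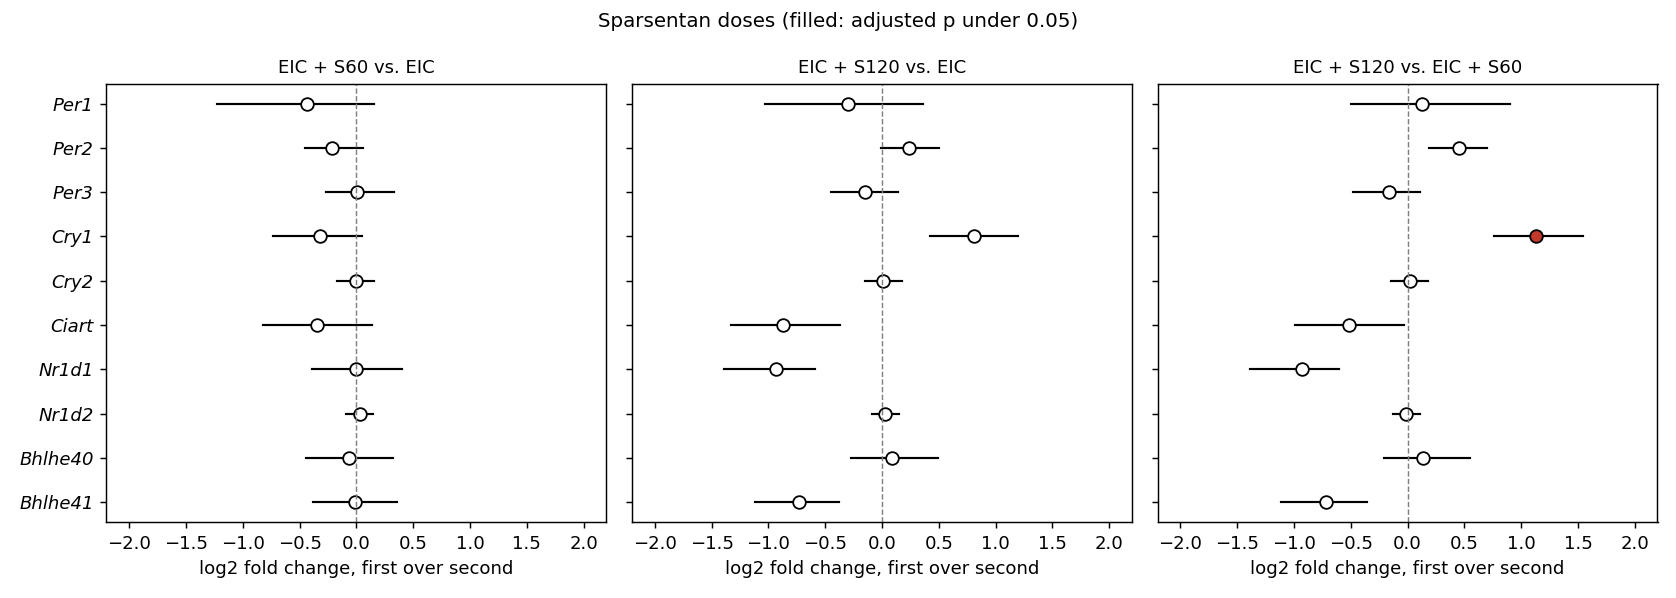
LFC (x axes, log2 units) of each repressor (y axis) between the groups given EIC. Points are edgeR estimates, lines are 95% intervals from limma, and filled points have an adjusted p under 0.05. Cry1 in EIC + S120 vs. EIC + S60 (LFC 1.13) is the only filled point. The intervals of Nr1d1, Bhlhe41 and Ciart lie left of 0 in both panels with EIC + S120.

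Within groups, Cry1 and Nr1d1 also varied in opposite directions. After group means were removed, their log2 levels over the 20 mice gave Pearson r = −0.62 (permutation p = 0.00044, adjusted p = 0.0198) and Spearman rho = −0.72 (permutation p = 0.00043, adjusted p = 0.0193), and r = −0.61 without the 2 mice farthest from the median. This was the only 1 of 45 pairs of repressors with an adjusted p under 0.05, and the median r of the 45 pairs was 0.09, with 27 positive. The strongest r of all was that of Nr1d1 and Bhlhe41 at 0.65 (Spearman rho 0.59), with permutation p of 0.0153 and 0.0299 and adjusted p of 0.138 and 0.199, and it was 0.48 without the 2 farthest mice. The ratio of Cry1 to Nr1d1 counts was 0.0103, 0.0207, 0.0325, 0.0276 and 0.0184 in Control mice, 0.177, 0.14, 0.0834, 0.103 and 0.12 in EIC mice, 0.0647, 0.0825, 0.122, 0.165 and 0.0698 in EIC + S60 mice, and 0.217, 0.588, 0.32, 0.441 and 0.737 in EIC + S120 mice. The Control and EIC + S120 ranges were apart from all others, whereas the EIC and EIC + S60 ranges overlapped.

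**Figure D4:**
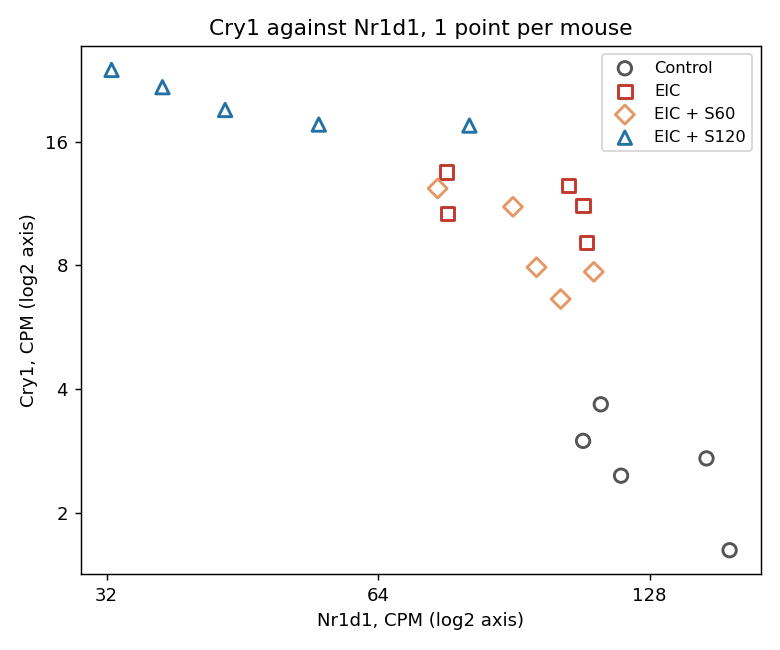
Cry1 CPM (y axis, log2 scale) against Nr1d1 CPM (x axis, log2 scale), 1 point per mouse and 5 mice per group. Control mice lie at the lower right (Cry1 at most 3.67), EIC and EIC + S60 mice between, and EIC + S120 mice at the upper left (Cry1 at least 17.5).

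Per kilobase of exon, the repressors spanned a wide range of levels. In Control mice, Nr1d1 stood at 41.9 ± 7.11 CPM per kb (SD, n = 5), followed by Bhlhe40 at 32.3 ± 10.4 and Nr1d2 at 21.5 ± 0.801. Per1 (6.95 ± 2.45), Cry2 (4.20 ± 0.464), Ciart (4.04 ± 1.37) and Per2 (2.74 ± 0.478) lay in the middle, and Bhlhe41 (1.72 ± 0.179), Per3 (1.63 ± 0.104) and Cry1 (0.805 ± 0.225) were lowest. The ranges of neighbours overlapped for Nr1d1 and Bhlhe40, for Per1, Cry2, Ciart and Per2 in turn, and for Bhlhe41 and Per3, while Cry1 lay below Per3 in every mouse without overlap. In EIC + S120 mice Nr1d2 (26.3 ± 1.67) lay above Nr1d1 (16.1 ± 6.3) in all 5 mice, with overlapping ranges, and Cry1 (5.98 ± 0.826) had a range overlapping those of Cry2 (6.27 ± 0.553) and Ciart (4.76 ± 0.989).

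The loci are given in GRCm38 from GENCODE vM21. Per1 lies at chr11:69095217-69109960 (plus strand), Per2 at chr1:91415982-91459324 (minus), Per3 at chr4:151003652-151044665 (minus), Cry1 at chr10:85131700-85185064 (minus) and Cry2 at chr2:92403646-92434043 (minus). Ciart lies at chr3:95878503-95882251 (minus), Nr1d1 at chr11:98767932-98775333 (minus), Nr1d2 at chr14:18204054-18239127 (minus), Bhlhe40 at chr6:108660629-108666925 (plus) and Bhlhe41 at chr6:145858243-145865558 (minus). Exons of 4 repressors overlap a gene on the opposite strand. No strand setting of the counting is stated, so reads from the shared bases cannot be assigned with certainty. Nr1d1 shares 263 of 3077 exon bases with Thra, a thyroid hormone receptor gene, Cry2 shares 295 of 6320 with D930015M05Rik, Bhlhe40 shares 118 of 4705 with 0610040F04Rik and Bhlhe41 shares 1280 of 6720 with Gm43909. Thra also fell in EIC + S120 vs. Control (LFC −0.53, SE 0.08, adjusted p = 0.000521) and was not DE in EIC + S120 vs. EIC (LFC −0.24, adjusted p = 0.41). Its part in the Nr1d1 values was not tested.

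Each repressor's pattern over the 20 mice was compared with those of all other tested genes, a description in which the group differences take part. Cry1 was close to Nampt, which encodes the NAD salvage enzyme (Pearson r 0.93 over 20 mice). Per2 was most like Mthfd1l and the cell cycle kinase gene Wee1 (both 0.94), and Cry2 most like the D-box activator gene Tef (0.92) and Nat8f6 (0.91). Nr1d1 was most like Adamts4 (0.90) and Msn (0.89), Nr1d2 like Zbtb14 (0.87), and Per1 like Ip6k2 (0.87) and Cfap43 (0.85). The closest genes were less close for Bhlhe41 (Pbxip1, 0.81, and Parp10, 0.79), Per3 (Cpeb3 and Slc27a1, both 0.80), Ciart (Coq10b and 2310061I04Rik, both 0.78) and Bhlhe40 (Zfp36l2, 0.72, and Acot2, 0.70).

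Of the 7 clock activators, 3 were DE and lower in EIC vs. Control and 1 was DE and higher. Over all tested genes, 1.37% were DE and lower and 1.61% DE and higher. Arntl, the BMAL1 gene, fell by LFC 2.09 (SE 0.35, adjusted p = 0.00681), Npas2 by 2.25 (SE 0.35, adjusted p = 0.00261) and Clock by 0.42 (SE 0.08, adjusted p = 0.0077). In CPM, Arntl was 2.24 to 3.36 in Control mice, 0.569 to 0.789 in EIC mice, 0.59 to 1.57 in EIC + S60 mice and 0.889 to 5.78 in EIC + S120 mice, where mouse 78 held the highest value. Arntl was also DE and lower in EIC + S60 vs. Control (LFC −1.66, SE 0.35, adjusted p = 0.0353). It was not DE in EIC + S120 vs. Control (LFC −0.37, SE 0.35, adjusted p = 0.625). In EIC + S120 vs. EIC, Arntl had an LFC of 1.73 (SE 0.35, 95% interval 0.56 to 2.0, adjusted p = 0.209). It was not DE there, although all 5 EIC + S120 mice lay above all EIC mice.

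Of the 4 D-box factor genes, Dbp and Tef rose in EIC vs. Control (LFC 0.68, adjusted p = 0.00204, and 0.43, adjusted p = 0.00211). Over all tested genes, 1.61% were DE and higher there. Dbp, a direct E-box target, was lower in EIC + S120 than in EIC (LFC −0.68, SE 0.11, adjusted p = 0.0256), and its mean was 160 CPM in both EIC + S120 and Control. In EIC + S120 vs. Control, Tef, Hlf and Nfil3 rose, Nfil3 by LFC 1.17 (SE 0.26, adjusted p = 0.0114). The share of all tested genes DE and higher in that comparison was 2.89%. Of 8 genes for kinases, ubiquitin ligases and a deubiquitinase acting on PER and CRY proteins, only Usp2 was DE in EIC vs. Control (LFC 0.63, SE 0.15, adjusted p = 0.0344). Of 9 cofactor genes of the repressors none was DE in that comparison by edgeR. An unadjusted p under 0.05 was found for 3 of the 9, and for 2347 of the 13990 genes tested.

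Genes that respond to signals acting on Per1 were examined alongside. Of 8 glucocorticoid-induced genes, the metallothionein genes Mt1 and Mt2 rose in EIC vs. Control (LFC 0.90 and 0.95), and 4 rose in EIC + S120 vs. Control, including Fkbp5 (LFC 1.62, SE 0.23, adjusted p = 0.00088) and Tsc22d3 (LFC 1.58, SE 0.35, adjusted p = 0.0252). Over all tested genes, 1.61% were DE and higher in EIC vs. Control and 2.89% in EIC + S120 vs. Control. The summed CPM of the 8 glucocorticoid-induced genes was 504 to 778 in Control and 656 to 1223 in EIC. It was 503 to 970 in EIC + S60 and 905 to 1842 in EIC + S120. Of 6 genes of the CREB and serum response, the immediate early genes Fos (LFC −3.10, SE 0.49, adjusted p = 0.00341), Egr1 (LFC −3.12, SE 0.45, adjusted p = 0.00506) and Junb (LFC −1.09, SE 0.25, adjusted p = 0.0393) fell in EIC vs. Control. Over all tested genes, 1.37% were DE and lower in that comparison. The summed CPM of all 6 genes was 83.3 to 229 in Control and 39.2 to 46.7 in EIC, which did not overlap. It was 36.0 to 73.5 in EIC + S60 and 81.5 to 195 in EIC + S120. Red cell markers summed to 352 to 559 CPM in Control and 518 to 1158 in EIC, and leukocyte markers, of which Csf1r made up most, to 61.5 to 78.3 and 53.2 to 109. Of the 4 leukocyte markers tested, only the macrophage marker Adgre1 was DE in EIC vs. Control, rising 3.32-fold (LFC 1.73, SE 0.31, adjusted p = 0.00586). Adgre1 was 1.49 to 2.31 CPM in Control mice and 4.01 to 11.8 in EIC mice, which did not overlap. The other 3 were not DE: Ptprc (LFC 0.47, adjusted p = 0.272), Csf1r (LFC 0.13, adjusted p = 0.75) and Cd79a (LFC −0.42, adjusted p = 0.476). Adrenal markers, of which 2 of 4 were listed, summed to at most 3.15 CPM in any mouse. The part of these differences in the repressors' values was not tested.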

How the data were processed

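RNA was measured by bulk poly(A) sequencing of kidney in 20 mice, with Control, EIC, EIC + S60 and EIC + S120 taken from the labels. The deposited values are raw gene counts: per the labels, the authors used Trimmomatic 0.36 for trimming, STAR 2.5.2b for alignment against GRCm38, and featureCounts from Subread 1.5.2 for counting. Which annotation and strand setting were used, and how reads shared by overlapping genes were treated, is not given in the sources used here. Both the repressors and the other gene lists were chosen with earlier results of these data known.

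A gene was tested if 5 or more of the 20 libraries held 10 or more of its reads (13990 of 15780 genes). Counts were scaled by TMM (factors 0.924 to 1.12) and fitted over all 4 groups with edgeR 4.0.16 (glmQLFit, robust, and glmQLFTest) in R 4.3.3, with Benjamini-Hochberg adjustment over all tested genes and DE at an adjusted p under 0.05. Standard errors and 95% intervals came from limma 3.58.1 (trend) applied to log2 CPM, prior count 2. CPM are counts per 1000000 counts of the TMM-scaled library, and levels between genes are CPM per kb of GENCODE vM21 exon. Single-gene permutation tests were exact and two-sided, and each within-group correlation used 100000 shuffles within groups with adjustment over 45 pairs. Values are given for all 10 repressors, for genes of the other lists, and for the 2 genes most like each repressor by Pearson r over 20 mice. Some genes of these lists are not reported here. No 2 libraries of a group were close to duplicates (chi-square per degree of freedom at least 6.12). The scripts were tested on simulated counts. Alternatives were RLE and upper-quartile scaling, no filter on low counts, DESeq2 1.42.0, limma-voom, only the compared libraries, no robust step, each library left out in turn, and, chosen after the data were seen, the 2 deepest Control libraries left out. Mouse numbers differ between groups and pair no mice.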

Additional observations from a re-analysis of the deposited data

Results flagged for a closer look

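Each repressor was looked at in each group of 5 mice for a mouse standing apart from the other 4, by the gap to its nearest neighbour over the range of the group, against Dixon's critical value for 5 samples. Of 40 such groups 2 held a mouse apart, and chance gives about 1 in 20 groups, or 2 here. Per2 in Control mouse 655 was 11.2 CPM, below the 16 to 17.8 CPM of the other Control mice (gap over range 0.727). Control mouse 655 also held the lowest Per1 and Ciart and the highest Bhlhe40 of its group. Bhlhe40 in EIC + S120 mouse 80 was 204 CPM, above the 166 to 173 CPM of the other EIC + S120 mice (gap over range 0.816). Per2 stayed DE in every comparison with Control without mouse 655, and Bhlhe40 was not DE in any comparison with or without mouse 80.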

How the results depend on the processing

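RLE and upper-quartile scaling, no filter on low counts, no robust step and limma-voom changed no call among the 60 repressor fold changes, and of the 17 called ones 0 changed sign under any of 28 alternatives. The fit without the 2 deepest Control libraries was chosen after seeing the data and held fewer Control mice. In it, 3 repressors were DE in EIC vs. Control, against 6 with all libraries. For EIC + S60 vs. Control it gave 4, against 5. DESeq2 called 4 repressors in EIC + S120 vs. EIC, where edgeR called 0, and 4 in EIC + S120 vs. EIC + S60, where edgeR called 1. Over all genes DESeq2 called 65 and 81, against 8 and 9 by edgeR, and the cause was not tested. Over the fits without 1 mouse, the number of DE repressors ranged from 5 to 6 in EIC vs. Control, 0 to 0 in EIC + S60 vs. EIC, 0 to 1 in EIC + S120 vs. EIC, 0 to 2 in EIC + S120 vs. EIC + S60, 4 to 5 in EIC + S60 vs. Control and 5 to 6 in EIC + S120 vs. Control. Of the fold changes other than 0.00 to 2 decimals, 10 turned sign, all uncalled and at most 0.13 in size, and the cause was not tested. The remaining pair, near 0 in EIC + S60 vs. EIC, ranged from −0.05 to 0.03 (Cry2) and −0.08 to 0.06 (Nr1d1) without 1 mouse. Without 1 mouse in turn, EIC + S60 vs. EIC gave LFCs from −0.06 to 0.15 for Per3, −0.16 to 0.03 for Bhlhe40 and −0.11 to 0.11 for Bhlhe41 (0.02 by limma-voom), and EIC + S120 vs. EIC gave −0.02 to 0.05 for Cry2, −0.01 to 0.05 for Nr1d2 and −0.02 to 0.16 for Bhlhe40. Bhlhe40 gave −0.02 to 0.22 in EIC + S60 vs. Control. Between the doses (EIC + S120 vs. EIC + S60) the LFCs were −0.04 to 0.39 for Per1, −0.02 to 0.07 for Cry2 and −0.04 to 0.03 for Nr1d2. No paired analysis was possible because the groups share no mouse numbers. Cry1 held 35 to 98 counts in Control libraries.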
